A study of Drosophila melanogaster with 51 samples.

Results

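The genes described here are 64 Drosophila melanogaster genes, each listed on the arrays under a CG number, whose RNA was low relative to wild type at 60 h and high at 96 h after egg deposition in larvae of both csn51 and csn53. A CG number is the identifier the fly genome annotation gives a gene, and the array's annotation had no other symbol for these. They were chosen by value from 1522 measured CG-named genes, among 6187 features in all. A gene was kept if its mean log2 ratio of mutant over wild type was -0.3 or lower at 60 h and 0.3 or higher at 96 h in each of the 2 alleles. The 72 h mean minus the average of the other ages also had to be above -1.0 in at least one allele, which removed none. CG4229, CG3108 and CG13603 were left out by name. The deposited ratios state neither their direction nor the base of their logarithm. Their signs were turned so that CSN4 and CSN5 are low in their own null larvae, which makes mutant over wild type likely but not settled, and base 2 is assumed. The csn51 and csn53 values chose the members and are given as a description, with no test. Every test below pools a gene's spread over all arrays, those of csn51 and csn53 included. The differences tested are those of csn4null and csn5null arrays, whose ratios the choice did not use. The wild-type RNA on them may nevertheless have entered the choice, since 23 of these 24 arrays carry a wild-type label of the same age and number as a csn51 or csn53 array. A wild-type sample that is high at 60 h or low at 96 h would move the chosen genes the same way in all genotypes, so the null values at 60 and 96 h, and the change between these ages, are not independent of the choice. The size of this effect was not tested.

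CSN4 and CSN5 are subunits of the COP9 signalosome. This complex takes Nedd8, a small protein related to ubiquitin, off cullins, around which many ubiquitin ligases are built. The study set larvae of csn4null, csn5null, csn51 and csn53, by their names null alleles of CSN4 and CSN5 and further alleles of CSN5, against wild-type larvae of the same age, labelled w118 on all but 1 array. RNA of mutant and of wild-type larvae was hybridised together to 51 two-colour arrays with dye reversals, described as biological repeats. The csn4null larvae were hybridised on 3, 4 and 4 arrays at 60, 72 and 96 h. For csn5null the numbers were 5, 4 and 4, for csn51 they were 4, 4 and 5, and for csn53 they were 5, 4 and 5. The labels used here give neither the lesion of each allele nor the larval stage that the animals of a given age had reached. Wild-type labels recur across genotypes and within groups, so the comparisons may share wild-type RNA. All 5 csn5null arrays of 60 h carry 1 wild-type label, so every csn5null result of 60 h, its change to 96 h and the 60 h difference of the nulls may rest on 1 wild-type sample. A lower ratio can come from fewer cells of a type or from less RNA per cell, which cannot be told apart in these samples.

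Of the 64 members, 13 carry an alias in the RefSeq gene table that is on a list of ribosome assembly names. Ribosomes are built in the nucleolus, where a long ribosomal RNA precursor is cut, chemically modified and folded onto ribosomal proteins by a large set of assembly factors. Larval growth depends on this supply of ribosomes. In yeast or human cells the small subunit is built with BMS1 (CG7728, a GTPase), RRP7 (CG9107), RRP12 (CG2691), UTP30 (CG13096), NOL11 (CG9300), the rRNA dimethylase Dim1 (CG11837) and the nuclease NOB1 (CG2972). The large subunit is built with BRX1 (CG11583), EBP2 (CG1542), RRP15 (CG3817), NIP7 (CG7006), BOP1 (CG5033, which RefSeq also lists as dWDR36) and the rRNA methyltransferase NOP2 (CG8545). This grouping goes by name alone, was made after the values were seen and is a description only. Members outside it may also act in ribosome assembly. Aliases outside that list included RCN2 (CG31650), in human a calcium-binding protein of the endoplasmic reticulum, and PAOX (CG7737), a polyamine oxidase. Also outside it were dTMEM70 (CG7506), in human an assembly factor of ATP synthase, dPA2G4 (CG10576), DmRH20 (CG32344) and DIP2 (CG8064). Most of the others, among them CG12009, CG6928, CG5953, CG1208 and CG1368, have no alias that gives a role, and none is given here. No member neighbours another member on its chromosome.

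Values were present on all arrays for 48 members, and all 64 were measured in every group. CSN4 lay between -3.22 and -1.30 on the 11 csn4null arrays. CSN5 lay between -0.66 and -0.01 on the csn51 arrays and between -0.63 and 0.50 on the csn53 arrays. It lay between -4.78 and -4.05 on the csn5null arrays of 60 h, was at -3.98, -4.04, -0.32 and -3.44 on those of 72 h, and at -3.84, -3.11, -0.01 and -1.16 on those of 96 h. Over all features the arrays labelled csn5null 60 h replicate 5, 72 h replicate 3 and 96 h replicate 3 correlated with the other arrays of their group at a median r of -0.012, -0.0052 and 0.0721. On the 48 arrays other than these the median r lay between 0.523 and 0.876. These 3 arrays labelled csn5null stand apart. On the arrays labelled csn5null 72 h replicate 3 and 96 h replicate 3 CSN5 was near wild type, at -0.32 and -0.01, which goes against their label, while on 60 h replicate 5 it was at -4.78. The main results that rest on csn5null are given with and without these 3 arrays.

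In csn51 and csn53 the members lie below wild type at 60 h and above it at 96 h by choice. The median member was at -0.52, 0.12 and 0.91 in csn51 and at -0.54, 0.01 and 0.57 in csn53 at 60, 72 and 96 h. At 72 h 45 of the 64 means were above 0 in csn51 and 32 in csn53, so the intermediate age split the members. The median over all features was near 0 in every group. The largest changes between 60 and 96 h, averaged over the alleles, were 4.92 for CG12009, 2.62 for CG6928, 2.12 for CG7006, 2.01 for CG11837, 1.98 for CG9107, 1.95 for CG16753, 1.85 for CG5953 and 1.84 for CG1368. Near the thresholds, CG14722 and CG9393 just passed with means of -0.30 and -0.31 at 60 h, and CG5953 and CG3045 with 0.31 and 0.34 at 96 h. CG5290 and CG8531 just failed at -0.30 and -0.28 at 60 h, and CG9154 and CG4045 at 0.29 and 0.28 at 96 h. Beyond the CG-named genes, 84 genes of other names and 25 unnamed features had the same values. Of the 84, 13 carry a name on the same ribosome assembly list, which also holds names of RNA polymerase I subunits, here Polr1C and Polr1F.

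**Figure D1:**
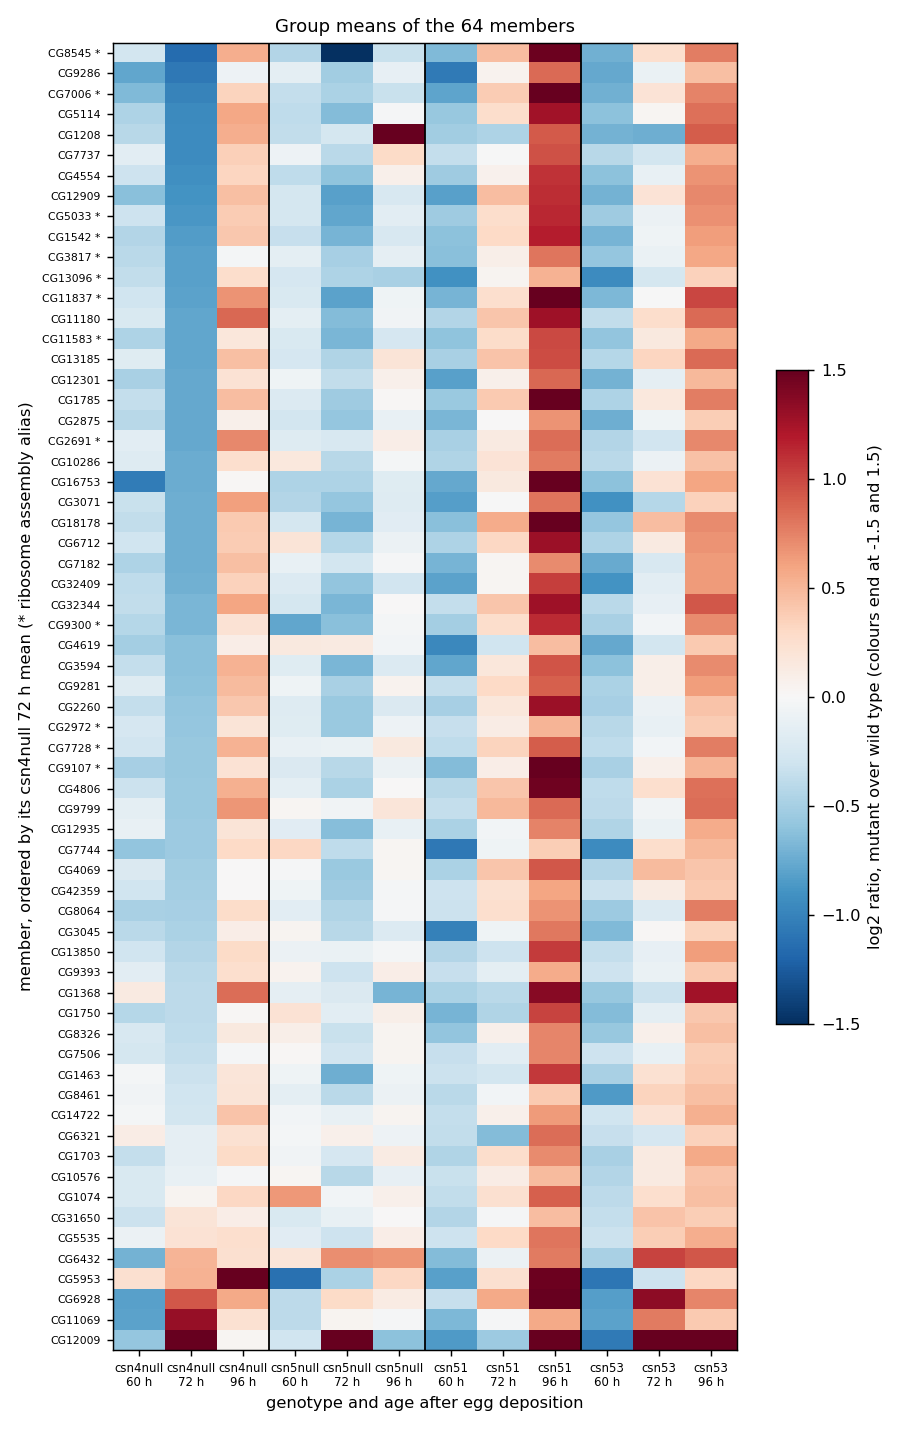
Group means of the 64 members (rows, ordered by the csn4null 72 h mean) in the 12 groups (columns), as log2 ratios (mutant over wild type), colours ending at -1.5 and 1.5; an asterisk marks the 13 members with a ribosome assembly alias. The csn51 and csn53 columns turn from blue at 60 h to red at 96 h by the choice of members, csn4null is blue at 72 h for 56 members, and csn5null is mostly pale at 96 h.

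In csn4null, where no array was used to choose the members, the median member was lowest not at 60 h but at 72 h. Most members were above wild type at 96 h. The median member was at -0.33, -0.60 and 0.30 at 60, 72 and 96 h. On single arrays the median member was at -0.23, -0.53 and -0.23 at 60 h, at -0.52, -0.55, -0.83 and -0.53 at 72 h, and at 0.39, 0.27, 0.36 and 0.30 at 96 h. All 7 arrays of the first 2 ages thus had a median below 0 and all 4 arrays of 96 h one above 0. The difference between 60 and 72 h was not tested, and the array medians of these 2 ages overlapped. On every array with a value 50 members were below 0 and 2 above 0 at 60 h. At 72 h 53 were below 0 and 5 above, and at 96 h 0 were below and 40 above. The share of all features was not set beside these counts.

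**Figure D2:**
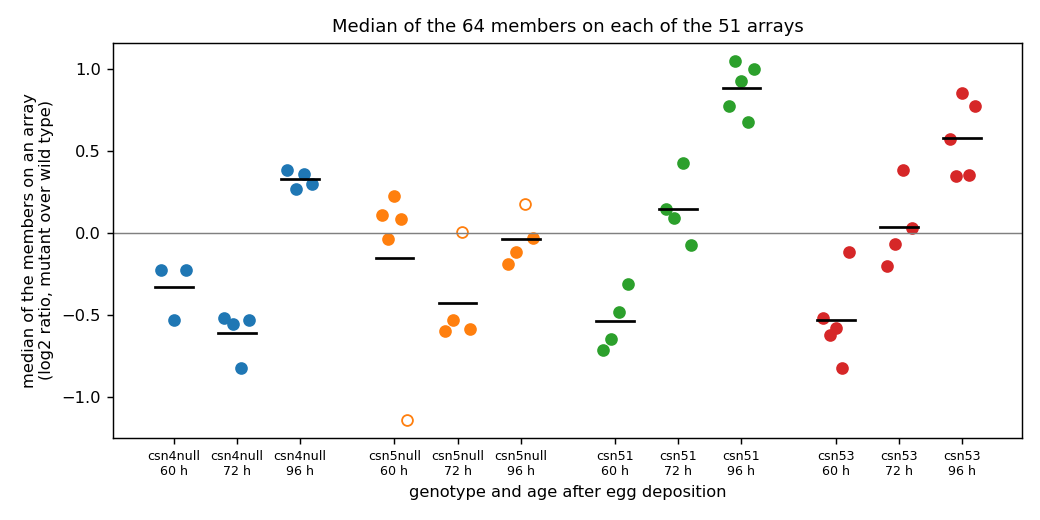
Median of the 64 members on each of the 51 arrays (points), as a log2 ratio of mutant over wild type, by genotype and age, with the mean over arrays as a bar; open points are the arrays labelled csn5null 60 h replicate 5, 72 h replicate 3 and 96 h replicate 3. The csn4null points lie between -0.83 and -0.52 at 72 h and between 0.27 and 0.39 at 96 h, and the open csn5null point of 60 h lies at -1.14.

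At 72 h the fall in csn4null took in most members. With limma's test over all features at an adjusted p under 0.05, 47 of 64 members (73.4%) fell and 5 rose, while 12.4% of all features fell and 12.6% rose. Of the 13 members with a ribosome assembly alias 12 fell, and of the 51 without one 35 fell. CG8545 (alias NOP2) had the largest fall, with -0.79, -0.96, -1.56 and -1.29 on the 4 arrays. All were below 0, and its difference was -1.15 ± 0.20 (SE of the fit; adjusted p = 2.1e-05). CG7006 (NIP7) was at -0.94, -0.84, -1.35 and -0.87, a difference of -0.9995 ± 0.25 with adjusted p = 0.0027. CG9286, which has no alias, was at -0.99, -1.03, -1.41 and -0.86, a difference of -1.07 ± 0.19 with adjusted p = 3.4e-05. In each of these, no array reached the level of wild type. BOP1 (CG5033, -0.87 ± 0.15), EBP2 (CG1542, -0.84 ± 0.19), RRP15 (CG3817, -0.81 ± 0.18), BRX1 (CG11583, -0.78 ± 0.17), RRP12 (CG2691, -0.76 ± 0.14), NOB1 (CG2972, -0.58 ± 0.11) and the helicase-named DmRH20 (CG32344, -0.69 ± 0.15) fell as well, with limma adjusted p-values between 2.7e-05 and 0.00080. CG9107 (RRP7) was the 1 alias member that did not pass, at -0.56 ± 0.31 (adjusted p = 0.21), although its 4 arrays lay between -0.71 and -0.37. Its spread in the fit includes csn51 arrays of 96 h at 0.60, 1.26 and 5.10. The count of members that fell was 27 without csn4null 72 h replicate 3, which had the lowest member median, and 33, 41 and 43 without replicates 4, 1 and 2. The calls of CG11837 (-0.81), CG13096 (-0.81) and CG7728 (-0.57), listed as Dim1, UTP30 and BMS1, were lost without replicate 3, with adjusted p-values of 0.072, 0.060 and 0.062, and that of CG9300 (NOL11, -0.69) without replicate 3 or 4, at 0.10 and 0.060.

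The 5 members that rose in csn4null at 72 h moved against those that fell. CG12009 was at 4.64, 3.75, 5.12 and 6.17 on the 4 arrays, a difference of 4.92 ± 0.72 (adjusted p = 1.5e-06). At 96 h its 3 measured arrays were at 0.01, 0.33 and -0.25, close to wild type. CG11069 was at 1.13, 0.91, 1.34 and 1.85 (1.31 ± 0.20, adjusted p = 2.5e-06), and CG6928 at 1.10, 0.51, 0.99 and 1.15 (0.94 ± 0.27, adjusted p = 0.0079). The means of these genes at 72 h in csn4null were above those at 96 h, which was not tested, and the arrays of the 2 ages overlapped for CG6928. CG12009 was at -0.54 and 3.93 in csn51 and at 2.78 and 3.99 in csn53 at 72 and 96 h. CG11069 was at -0.02 and 0.57 in csn51 and at 0.77 and 0.39 in csn53, and CG6928 was at 0.57 and 3.34 in csn51 and at 1.34 and 0.73 in csn53. CG6432 (0.51 ± 0.16, adjusted p = 0.016) and CG5953 (0.52 ± 0.19, adjusted p = 0.043) rose by less. The CG6432 call was lost without csn4null 72 h replicate 4 (adjusted p = 0.10), and the CG5953 call without replicate 1, 2 or 3, with adjusted p-values of 0.27, 0.26 and 0.089. RefSeq lists no role for any of the 5.

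At 60 h the members were low in csn4null, but few differences passed the test. 6 members (9.38%) fell and none rose, where 8.11% of all features fell and 9.78% rose. At an unadjusted p under 0.05 the limma fit gave 18 lower and 0 higher members. No share of all features was set beside this unadjusted count, so it is not a result about the members. The median difference over the members was -0.32, against -0.01 over all features. CG16753 was at -2.15, -0.76 and -0.22 on the 3 arrays (-1.02 ± 0.24, adjusted p = 0.0030), and the other 5 were CG11069, CG9286, CG6432, CG7744 and CG31650, of which CG9286 was at -0.88, -0.93 and -0.52. The arrays of CG16753 differed widely although all were below 0. The limma count was 0 without csn4null 60 h replicate 1 (13 lower at an unadjusted p under 0.05) and 1 without replicate 2. Without the 3 arrays labelled csn5null that stand apart, which lend their spread to every gene in the fit, 18 members fell (28.1%), against 12.5% of all features.

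At 96 h the direction was the opposite. In csn4null 19 members (29.7%) rose and none fell, where 15.1% of all features rose and 16.3% fell. CG5953 rose most, with 1.72, 1.53, 1.69 and 1.91 on the 4 arrays (1.71 ± 0.19, adjusted p = 2.9e-09). CG11180 was at 0.71, 0.59, 1.21 and 0.94 (0.86 ± 0.21, adjusted p = 0.0014), and CG1368 at 0.28, 0.62, 1.16 and 1.30 (0.84 ± 0.15, adjusted p = 2.0e-05). Every array of these genes was above wild type. Among the assembly factors RRP12 (CG2691) had 0.79, 0.73, 0.64 and 0.71, a difference of 0.72 ± 0.14 with adjusted p = 6.1e-05. DmRH20 (CG32344) was at 1.02, 0.60, 0.40 and 0.35 (0.59 ± 0.15, adjusted p = 0.0017). CG11837 (Dim1, 0.67), CG8545 (NOP2, 0.54) and CG7728 (BMS1, 0.53) passed with all arrays and made up, with CG2691, the 4 alias members that rose. These 3 calls were lost without replicate 1, with adjusted p-values of 0.11, 0.098 and 0.097, and those of CG8545 and CG11837 also without replicate 3, at 0.18 and 0.088, and that of CG8545 without replicate 4, at 0.074. CG1208 rose too (0.54 ± 0.14, adjusted p = 0.0024), a call lost without replicate 3 (adjusted p = 0.061). Of the 19 members that rose at 96 h, 18 (94.7%) had fallen at 72 h, where 73.4% of the members fell, and CG5953 was the other. Of the 932 features that rose at 96 h, 142 (15.2%) had fallen at 72 h, where 12.4% of all features fell. The count was 11, 15, 10 and 14 without replicates 1 to 4 of 96 h and 26 without the 3 arrays labelled csn5null, against 18.3% of all features.

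Markers of other tissues moved at 96 h as well. In csn4null both measured fat body markers, 2 of 3 haemocyte markers and 3 of 4 midgut markers fell. Their median differences were -4.04, -2.91 and -0.47, where the fat body median is over 2 genes and Fbp2 was at -7.61. Among muscle and neuron markers 1 of 2 each rose, with medians of 0.19 and 0.19. Of all features 16.3% fell and 15.1% rose. In csn5null 1 of 2 fat body, 3 of 3 haemocyte and 3 of 4 midgut markers fell, with medians of -2.87, -1.35 and -0.60. The fat body marker that fell was Fbp2, at -5.49, and no muscle or neuron marker passed. Of all features 7.79% fell and 9.47% rose in csn5null. No salivary gland marker was measured. The midgut markers are digestive enzyme genes, and other genes of that list, given below, rose at 96 h. At 72 h, when most members fell in csn4null, neither fat body, muscle nor neuron markers passed, and 1 of 3 haemocyte and 1 of 4 midgut markers fell and 1 midgut marker rose. Of all features 12.4% fell and 12.6% rose in csn4null at 72 h. The part of these markers in the members' values was not tested.

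**Figure D3:**
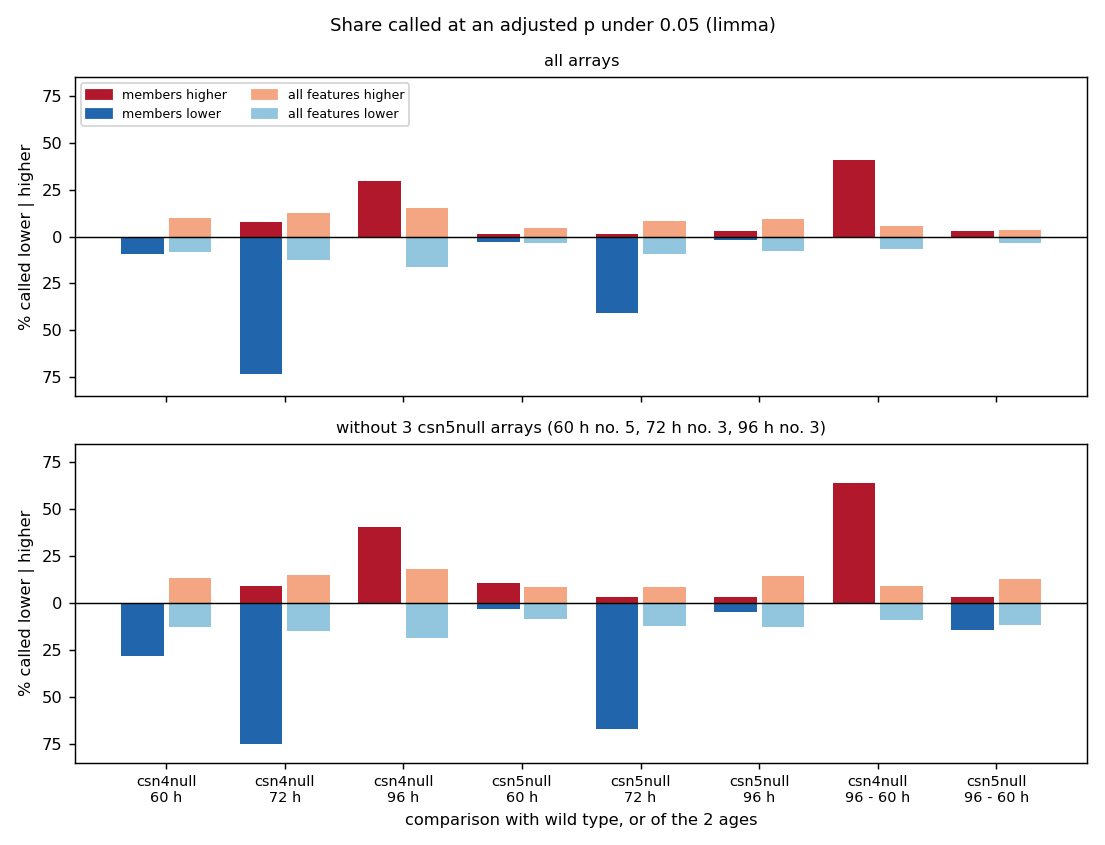
Share of the 64 members (dark bars) and of all tested features (light bars) called at an adjusted p under 0.05 by limma, higher (upward) or lower (downward), in csn4null and csn5null against wild type and between 96 and 60 h; the upper panel uses all arrays, the lower leaves out 3 arrays labelled csn5null. In csn4null 73.4% of the members against 12.4% of all features were called lower at 72 h, and in csn5null 40.6% against 9.44%.

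Between 60 and 96 h every member had a higher mean at the later age in csn4null, by 0.69 at the median and between 0.12 and 1.47. The difference passed the test in 26 members (40.6%), all upward, where 5.8% of all features rose and 6.72% fell. At an unadjusted p under 0.05 the limma fit gave 43 higher and 0 lower members, again with no share of all features beside it. With the 3 arrays labelled csn5null left out 41 members rose (64.1%), against 9.29% of all features. CG5953 changed by 1.46 ± 0.29 (adjusted p = 0.00063) and CG2691 (RRP12) by 0.87 ± 0.21 (adjusted p = 0.00385). Neither call was lost when any 1 csn4null array of the 2 ages was left out, nor were those of CG32344 (0.97 ± 0.23) and CG1208 (0.97 ± 0.22). CG6928 changed by 1.38 ± 0.41 (adjusted p = 0.022) and CG11180 by 1.08 ± 0.32 (adjusted p = 0.023). The CG6928 call was lost without replicate 1 or 2 of 60 h or replicate 3 or 4 of 96 h (adjusted p between 0.053 and 0.22), and the CG11180 call without replicate 1 or 2 of 60 h or replicate 3 of 96 h (between 0.054 and 0.15). The count of members that rose was 15, 6 and 17 without csn4null replicates 1 to 3 of 60 h, and 13, 17, 13 and 18 without replicates 1 to 4 of 96 h.

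In csn5null 26 of the 64 members fell at 72 h, and 2 rose above wild type at 96 h. The median member was at -0.16, -0.45 and -0.03 at 60, 72 and 96 h, and at 0.09, -0.60 and -0.12 without the 3 arrays that stand apart. At 72 h 26 members (40.6%) fell and 1 rose, where 9.44% of all features fell and 8.32% rose. 8 of the 13 alias members were among the 26, against 4, 5, 10 and 5 without replicates 1 to 4. CG8545 (NOP2) was at -1.32, -1.21, -1.86 and -1.58 (-1.49 ± 0.20, adjusted p = 1.2e-06). BOP1 (CG5033) was at -0.86, -0.76, -0.79 and -0.73 (-0.78 ± 0.15, adjusted p = 0.00035), and CG12909 at -1.13, -0.89, -0.23 and -0.9989 (-0.81 ± 0.20, adjusted p = 0.0040). Replicate 3 was thus as low as the others for CG8545 and CG5033 and higher for CG12909. CG11837 (Dim1, -0.80 ± 0.23, adjusted p = 0.013) lost its call without replicate 1 or 4, at 0.072 and 0.064. CG6432 was the 1 member that rose, with 1.12, 0.56, 0.27 and 0.84 (0.70 ± 0.16, adjusted p = 0.0022). The members that fell numbered 43 without the 3 arrays, against 12% of all features, 36 without 72 h replicate 3 alone, and 12, 15 and 10 without replicates 1, 2 and 4. Fitted with limma on the 4 arrays alone and no dye term, none passed, and 34 were lower and 1 higher at an unadjusted p under 0.05. The share of all features was not set beside these unadjusted counts.

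At 60 and 96 h few members changed in csn5null. At 60 h 1 rose and 2 fell, against 4.54% and 3.39% of all features, and 7 rose and 2 fell without the 3 arrays, against 8.79% and 8.41%. CG5953 was at -1.01, -1.16, -1.16, -1.48 and -0.80 (-1.13 ± 0.17, adjusted p = 8.2e-06), while CG1074 was at 1.01, 0.74, 1.21, 0.94 and -0.65 (0.65 ± 0.14, adjusted p = 0.0013). CG9300 (NOL11) fell by 0.78 (adjusted p = 0.0073), on the strength of 2 arrays at -2.52 and -1.33, and was at -0.35 (adjusted p = 0.29) without replicate 4. The fifth array thus went against the other 4 for CG1074 and with them for CG5953. At 96 h 2 members rose and 1 fell, against 9.47% and 7.79% of all features, and without the 3 arrays 2 rose and 3 fell, against 14.4% and 12.9%. CG1208 was at 1.96, 2.06, 0.83 and 2.31 (1.79 ± 0.14, adjusted p = 4.8e-12) and CG6432 at 0.94, 0.74, 0.51 and 0.45 (0.66 ± 0.16, adjusted p = 0.0030). CG1368 was at -1.12, -0.99, 0.29 and -0.99 (-0.70 ± 0.15, adjusted p = 0.00058), below wild type on every array but replicate 3.

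**Figure D4:**
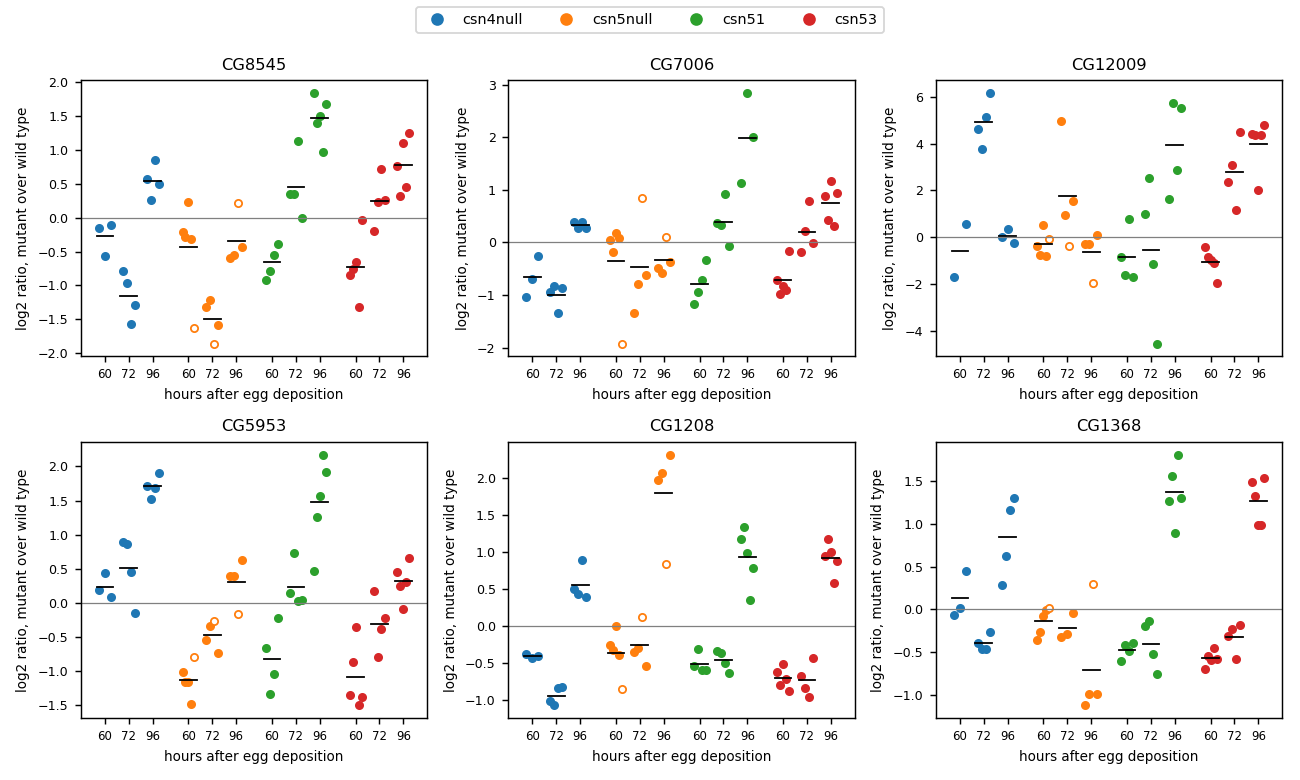
Log2 ratios of mutant over wild type on each array (points, open for the arrays labelled csn5null 60 h replicate 5, 72 h replicate 3 and 96 h replicate 3) for 6 members, with the group mean as a bar, at 60, 72 and 96 h in csn4null, csn5null, csn51 and csn53. CG8545 and CG7006 fall at 72 h and lie above 0 at 96 h in csn4null, CG12009 is highest there at 72 h, and CG1208 reaches 2.31 and CG1368 falls to -1.12 in csn5null at 96 h.

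The change between 60 and 96 h passed the test in csn5null for CG1208 (2.15 ± 0.19, adjusted p = 1.8e-10) and CG5953 (1.44 ± 0.26, adjusted p = 0.00036) and for no other of the 64, against 3.7% of all features that rose and 3.67% that fell. The median change was 0.10, with 47 members above 0 and 17 below. Without the 3 arrays that stand apart it was -0.21, with 15 members above 0 and 49 below, and 2 members then rose and 9 fell, against 12.9% and 11.6% of all features. Without 60 h replicate 5 alone the median of the fitted changes was -0.14. On that array the median member was at -1.14, and without it 2 rose and 4 fell. On the other 4 arrays of 60 h the median member was at 0.11, -0.04, 0.23 and 0.08. The sign of the median change in csn5null thus rests on 1 array.

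**Figure D5:**
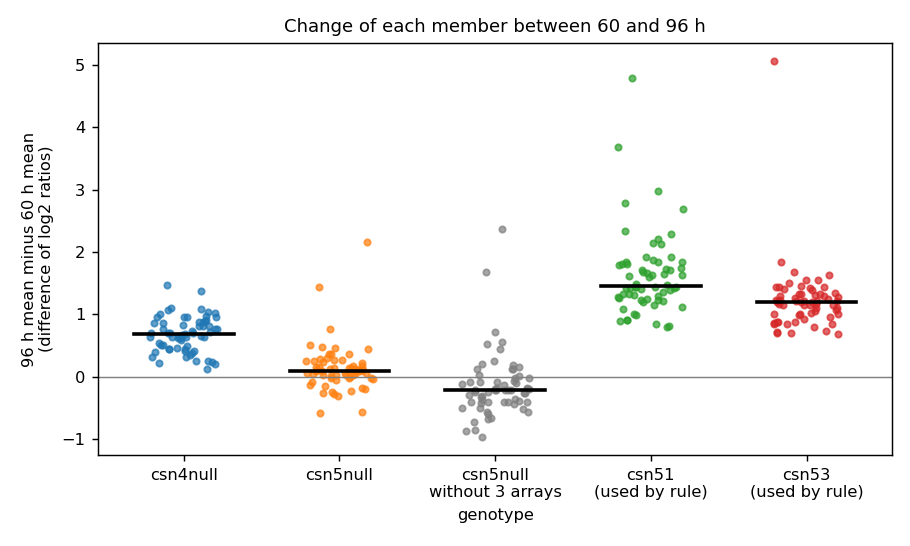
Change of each member (points) between 60 and 96 h, as the 96 h mean minus the 60 h mean of log2 ratios, with the median as a bar, in csn4null, in csn5null with all arrays and without 3 arrays, and in csn51 and csn53, whose values chose the members. The csn4null points lie between 0.12 and 1.47, and the csn5null median moves to -0.21 without the 3 arrays, against 0.10 with them.

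The difference between csn4null and csn5null was tested directly. At 60 h 1 member was higher and 3 were lower in csn4null than in csn5null, against 5.78% and 4.23% of all features. CG5953 was at 0.19, 0.44 and 0.08 in csn4null and at -0.80 or lower on every csn5null array, a difference of 1.38 ± 0.28 (adjusted p = 0.0012). CG6432 (-0.91 ± 0.24, adjusted p = 0.012), CG1074 (-0.86 ± 0.23, adjusted p = 0.012) and CG7744 (-0.92 ± 0.27, adjusted p = 0.0265) were lower in csn4null. Of these only the CG5953 call held without each array in turn. The CG6432 call was lost without csn4null 60 h replicate 1 or 2 (0.060 and 0.12), the CG1074 call without csn4null replicate 2 or csn5null replicate 1 (0.067 and 0.054), and the CG7744 call without any 1 of csn4null replicates 1 and 2 and csn5null replicates 1 to 4 (between 0.051 and 0.19). Without the 3 arrays labelled csn5null 1 member was higher and 19 were lower, against 14.5% and 14.1% of all features, and without 60 h replicate 5 alone 1 and 13.

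At 72 h 4 members were higher and 1 was lower in csn4null than in csn5null, against 6.08% and 4.51% of all features. CG11069 was at 0.91 or higher on the csn4null arrays and at 0.36, -0.11, -0.54 and 0.47 on the csn5null arrays, a difference of 1.26 ± 0.28 (adjusted p = 0.0019). The groups of CG11069 did not overlap. The CG12009 arrays of csn5null were at 4.96, 0.97, -0.36 and 1.55, and its difference of 3.14 ± 1.02 (adjusted p = 0.041) was lost without any 1 of csn4null 72 h replicates 1, 3 and 4 or csn5null 72 h replicates 2, 3 and 4, with adjusted p-values between 0.066 and 0.18. CG5953 (0.99 ± 0.27, adjusted p = 0.013), CG5535 (0.53 ± 0.18, adjusted p = 0.0498, named after its values were seen) and CG1208 (-0.68 ± 0.20, adjusted p = 0.022) also passed. The CG5953 call was lost without csn4null replicate 1 or 2 (0.070 and 0.063), the CG1208 call without csn4null replicate 1 or 2 or csn5null replicate 3 (0.069, 0.073 and 0.12), and the CG5535 call without any 1 array but csn5null replicate 3 (between 0.062 and 0.17).

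At 96 h CG1368 was higher in csn4null than in csn5null by 1.54 ± 0.21 (adjusted p = 1.4e-06) and CG5953 by 1.40 ± 0.27 (adjusted p = 0.00069), and CG1208 was lower by -1.25 ± 0.20 (adjusted p = 4.1e-05). These were the 3 members called, where 1.76% of all features were higher and 3.15% lower, and none of the calls was lost without any 1 of the 8 arrays. Leaving out the 3 arrays labelled csn5null, 17 members were higher and 1 was lower, against 3.65% and 5.46%. The change between 60 and 96 h differed in 2 members, CG1368 (1.24 ± 0.30) and CG1208 (-1.18 ± 0.29), each with adjusted p = 0.046, where 0.136% of all features were higher and 0.375% lower. Leaving out single arrays ended each call in most cases, with adjusted p-values up to 0.15 for CG1208 and 0.18 for CG1368. Without the 3 arrays labelled csn5null the change was larger in csn4null for 35 members (54.7%) and smaller for 1, against 7.89% and 7.6% of all features, and without csn5null 60 h replicate 5 alone for 21 and 1.

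The named genes that met the same values were chosen by the same rule on the same csn51 and csn53 arrays. They are set beside the CG-named ones as a description, not as an independent check. The limit from wild-type RNA that may be shared at 60 and 96 h holds for them too. Of these 84, 62 fell and 1 rose at 72 h in csn4null, against 12.4% and 12.6% of all features. At 96 h 36 rose and none fell there, against 15.1% and 16.3%. In csn5null 31 fell and 2 rose at 72 h, against 9.44% and 8.32%. Their medians were -0.30, -0.57 and 0.39 in csn4null and -0.09, -0.36 and -0.03 in csn5null at 60, 72 and 96 h. The largest changes in csn51 and csn53 among them were in U3-55K (2.12), Nop56 (2.04), Mybbp1A (1.91), Polr1C (1.85), ais (1.85) and Rlb1 (1.80). Nop56 is a core protein of the small nucleolar ribonucleoproteins that guide rRNA methylation, Polr1C is a subunit shared by RNA polymerases I and III, and ais has the alias Rok1, in yeast an RNA helicase of small-subunit assembly. In csn4null at 72 h Nop56 was at -1.34 ± 0.23, ais at -0.87 ± 0.24 and Polr1C at -0.76 ± 0.23, and all 3 fell, as did Mybbp1A at -0.82 ± 0.27 (limma adjusted p = 0.0204). U3-55K (-0.65 ± 0.30, adjusted p = 0.114) and Rlb1 (-0.55 ± 0.35, adjusted p = 0.292) did not pass. Beyond the members, 28 measured genes carry a name on the ribosome assembly list, made after the values were seen. Of these, 13 are among the 84 and so were chosen by the same values, and the 15 that are not were not counted apart. The 28 had medians of -0.25, -0.59 and 0.40 in csn4null. There 2 fell at 60 h, 16 fell at 72 h and 8 rose at 96 h, against 8.11%, 12.4% and 15.1% of all features. In csn5null the medians of the 28 were -0.19, -0.49 and -0.09, and 11 fell at 72 h, against 9.44%.

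Genes of cuticle and moulting were called in both directions in the same larvae. Of 31 cuticle and chitin genes 12 rose and 2 fell at 60 h, 6 rose and 10 fell at 72 h, and 7 rose and 1 fell at 96 h in csn4null. In csn5null 1 rose and 1 fell at 60 h, 6 rose and 3 fell at 72 h, and 7 rose and 1 fell at 96 h. Of all features 9.78%, 12.6% and 15.1% rose and 8.11%, 12.4% and 16.3% fell in csn4null at 60, 72 and 96 h. For csn5null these shares were 4.54%, 8.32% and 9.47% upward and 3.39%, 9.44% and 7.79% downward. Of 13 genes of ecdysone synthesis and response, the steroid hormone that times moults, 4 rose and 2 fell at 72 h in csn4null, among them the ecdysone-inducible ImpL1 (5.39 ± 0.73) and ImpE2 (3.07 ± 0.67) upward, and 3 fell at 96 h, among them the receptor EcR (-0.98 ± 0.21). In csn5null 3 rose and 1 fell at 72 h and 2 fell at 96 h. Of 6 digestive enzyme genes 2 rose and 3 fell at 96 h in csn4null and 1 rose and 3 fell in csn5null. The 4 midgut markers above are all on this list, so the 2 counts are not separate. Those that rose were Amyrel (3.78 ± 0.44) and Bace (2.35 ± 0.72) in csn4null, and Amyrel (2.15 ± 0.44) in csn5null. Fbp2, the 1 gene measured of the late larval fat body list, is also among the fat body markers above. At 96 h it was at -7.61 ± 0.67 in csn4null and at -5.49 ± 0.67 in csn5null. No relation of these genes to the members was tested.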

How the data were processed

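Mutant and wild-type larval RNA was compared on 51 two-colour arrays. The values are those the authors deposited in their processed table, taken as log2 ratios. How background and normalization were done, the base of the logarithm and the direction are not given in the sources used here. With a largest absolute value of 10.4 a base of 10 is unlikely, and a natural logarithm would scale every value by one factor. Every sign was turned, because the deposited means of CSN4 in csn4null (2.35) and CSN5 in csn5null (3.13) were above 0, so the turned values are taken, as likely, to run mutant over wild type, and if that is wrong every rise here is a fall. Array medians lay between -0.02 and 0.03, and 5780 to 6561 entries had a value on an array. Precision is set by how many arrays a group has.

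The 32 control entries were left out and 28 entries had no value. Entries of a gene were averaged, which gave 6187 features, 4698 of them named. All 64 members matched the RefSeq table of Release 6 plus ISO1 MT, used for names and neighbours. Comparisons were fitted with limma 3.58.1 in R 4.3.3, with 12 group coefficients and 1 dye coefficient over all arrays (prior df 3.46, prior SD 0.23), for features with at least 2 values per group, with Benjamini-Hochberg adjustment over the features of a comparison and a threshold of 0.05. Standard errors and p-values are those of this fit, which pools a gene's spread over all arrays. The fit was also run on simulated data with independent noise on each array. That simulation held no shared wild-type RNA, dye effect or arrays that stand apart, so it cannot vouch for the p-values given here. Figures were drawn with matplotlib in Python.

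The members, gene lists and tests were chosen with earlier results of these data known. Genes named are CSN4 and CSN5, the 8 largest changes in csn51 and csn53, up to 3 rises and 3 falls per comparison, 2 genes on each side of each threshold, members with an alias of known function, 6 genes of other names, and up to 4 genes per list. Alternatives were no dye term, fewer arrays, centring, scaling, a value on every array, single entries, array weights, a replicate block, and each array left out in turn. Residuals of csn4null and csn5null arrays with the same age and number correlated between -0.21 and 0.22, so the numbers were not taken to pair the arrays.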

Additional observations from a re-analysis of the deposited data

Results flagged for a closer look

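Among named members and member medians, 39 of 313 sets of 4 or more arrays held 1 array far from the others. The array of csn5null 60 h replicate 5 was that array in 18. Chance gives about 1 in 20 for a single set, but the sets share arrays and are not independent, so no excess can be read from the count. On it the median member was at -1.1412, below its 4 neighbours, and CG7006 was at -1.9259, CG11837 at -1.8116, CG16753 at -1.3033, CG9286 at -1.1679, CG7744 at -1.2851, CG7728 at -1.1169, CG2691 at -0.7297, CG5033 at -1.285 and CG1542 at -1.5774. On the same array CG3817 was at -1.3768, CG2972 at -0.9344, CG11583 at -1.4147, CG13096 at -1.9727, CG1074 at -0.6527, CG32344 at -1.256, CG11180 at -1.767 and CG12909 at -1.5594. On the array labelled csn5null 72 h replicate 3 the median member was at 0.0041, above the other arrays of that group, as were CG9286 (0.333), CG11583 (0.0295) and CG13096 (0.5816). On the array labelled csn5null 96 h replicate 3 CG1368 (0.2947) and CG13096 (0.1572) stood above the others, and on replicate 2 CG32344 (-0.0872) stood apart.

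On csn4null 72 h replicate 3 the median member was at -0.8272, CG1542 at -1.084 and CG13096 at -1.1169, each below the other arrays, and on replicate 4 CG5535 was at 0.5242. In csn53 at 60 h replicate 5 stood above the others for CG11837 (-0.1242), CG9286 (-0.2135), CG7744 (-0.4736), CG3817 (-0.0673) and CG11583 (-0.0316). Single values apart from their group were CG6928 at 0.7087 on csn53 72 h replicate 3, CG12009 at 2.0058 on csn53 96 h replicate 3, CG5953 at 0.7274 on csn51 72 h replicate 2, CG2691 at 0.4692 on csn51 72 h replicate 3, and CG11583 at 1.1336 on csn51 96 h replicate 5.

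The difference of csn4null minus csn5null passed limma's test for 4 members at 60 h, CG1074 (-0.8647), CG5953 (1.3806), CG6432 (-0.91) and CG7744 (-0.9174). At 72 h it passed for CG11069 (1.2623), CG12009 (3.1419), CG1208 (-0.6773), CG5535 (0.5267) and CG5953 (0.9891), and at 96 h for CG1208 (-1.2457), CG1368 (1.5428) and CG5953 (1.3999). The change between 60 and 96 h differed for CG1208 (-1.1762) and CG1368 (1.2376).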

How the results depend on the processing

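No call of a named member changed direction under any alternative run, but the median change between 60 and 96 h in csn5null did, at -0.14 without 60 h replicate 5 and -0.20 (of the fitted changes) without the 3 arrays that stand apart, and with array weights it was -0.15 and the csn5null median of 60 h was 0.04. The counts of members called were the same with the replicate number as a block (block correlation 0.00646), for example 52 in csn4null at 72 h, and the block changed no call. Without the 3 arrays labelled csn5null that stand apart, members called were 18, 54 and 26 in csn4null at 60, 72 and 96 h, 9, 45 and 5 in csn5null, 41 and 11 for the change between 60 and 96 h in csn4null and csn5null, and 20, 5 and 18 for the difference of the nulls at 60, 72 and 96 h and 36 for the difference in change. Leaving out 72 h replicate 3 and 96 h replicate 3 only gave 5 in csn5null at 60 h, 4 for the csn5null change and 7 for the difference at 96 h.

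With array weights 25 fell and 29 rose in csn4null at 60 and 96 h, where 21.7% of all features fell and 19.9% rose. In csn5null 19 were called at 60 h (11 higher and 8 lower, against 19.3% and 19.8% of all features) and 54 at 72 h (2 higher and 52 lower, against 15.6% and 19.5%). For the changes 42 were called in csn4null, all higher (14.8%), and 13 in csn5null (3 higher and 10 lower, against 16.6% and 15.3%). For the difference of the nulls 27 were called at 60 h (1 higher and 26 lower, against 24% and 25.5%), 17 at 96 h (16 higher and 1 lower, against 3.65% and 5.77%) and 41 in change (40 higher and 1 lower, against 11.7% and 13.2%). Fits on the arrays of the groups compared, with no dye term, gave 0 and 31 in csn4null at 60 and 96 h, 1, 0 and 1 in csn5null at 60, 72 and 96 h, 41 for the csn4null change, 2, 2 and 7 for the difference at 60, 72 and 96 h, and 0 for the difference in change. At an unadjusted p under 0.05 limma's 3 counts of 0 there were 36 lower in csn4null at 60 h, 34 lower and 1 higher in csn5null at 72 h, and 10 higher and 1 lower for the difference in change. On the csn4null and csn5null arrays only, the csn4null change gave 14, the difference at 60 h 2, and the difference in change 0 (12 higher and 1 lower unadjusted). Scaling gave 10 and 15 in csn4null and csn5null at 60 h, 8 for the difference at 60 h and 5 for the difference in change. Features with a value on every array gave 3 for the difference at 72 h and 1 for that in change. Counts in this paragraph with no share of all features beside them show only how the count moved, not a result about the members.

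Leaving out each array in turn gave 0 to 6, 32 to 47 and 10 to 15 in csn4null at 60, 72 and 96 h, 2 to 8, 11 to 38 and 3 to 4 in csn5null, 6 to 18 and 2 to 6 for the changes in csn4null and csn5null, 1 to 14, 1 to 5 and 3 to 4 for the difference at 60, 72 and 96 h, and 0 to 22 for the difference in change. The share of all features was not set beside these counts, nor beside counts without single arrays above, so they describe only how the count moved. Of 477 calls of named members with 1 array left out, 142 lost the threshold. Thresholds of 0.2 on either side gave 104 members, thresholds of 0.5 gave 17, and keeping every sign as deposited gave 17, of which 0 are among the 64. Leaving out single csn51 and csn53 arrays gave 56 to 68. The cause of these changes was not tested, beyond the smaller number of arrays or features by construction. The precision is limited by 3 to 5 arrays a group, and signal over background is not in the values used.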

Other observations

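Of the 64 members 8 passed the test in no comparison of csn4null or csn5null with wild type. The share of all features that passed in none was not counted, so this is not a result about the members. The 13 members with a ribosome assembly alias had medians of -0.35, -0.81 and 0.33 in csn4null at 60, 72 and 96 h, and the 51 others -0.32, -0.55 and 0.29. In csn5null the 13 had medians of -0.25, -0.56 and -0.14, and the 51 others -0.15, -0.41 and -0.02. The 2 sets of members were not tested against each other.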
